A study of Mus musculus with 6 samples.

Results

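The genes described here are the transcriptional coactivator genes Yap1 and Wwtr1, which encodes TAZ, with 8 genes known as targets or partners of YAP and its DNA-binding TEAD factors: Ccn1, Ccn2, Thbs1, Amotl2, Ankrd1, Axl, Lats2 and Ajuba. They were chosen by name with their difference between Mettl5 knockout and wild-type cells already known, so that difference is given for them as a description and supports nothing. All 10 were matched by GENCODE M21 symbol among 24191 genes in the deposited table. PolyA RNA was measured in 3 libraries of J1 mouse embryonic stem cells of genotype Mettl5 -/- (knockout) and in 3 libraries of wild-type J1 cells (WT). J1 is a widely used embryonic stem cell line, and METTL5 is a methyltransferase that modifies an adenosine of the small ribosomal subunit's RNA. Both groups had been kept for 7 days in serum with LIF, the cytokine that holds mouse stem cells undifferentiated. The labels do not say how many knockout clones were used or whether replicates were separate cultures, so the errors and p-values measure the spread between these libraries, which may be technical.

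YAP and TAZ are held in the cytoplasm and marked for degradation when the kinases LATS1 and LATS2, switched on by the MST kinases of the Hippo pathway, phosphorylate them. When the pathway is off, as on stiff substrates or in spread cells, they enter the nucleus, bind TEAD factors and switch on genes such as Ccn1, Ccn2 and Ankrd1. Several targets feed back on the pathway: LATS2 is one of its inhibiting kinases, and AMOTL2 is a scaffold that keeps YAP out of the nucleus. TEAD factors recognise a short core, GGAATG, which reads CATTCC on the other strand. In many cells YAP-bound sites are distal enhancers that also hold AP-1 sites.

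RefSeq promoter windows (GRCm38.p6, the assembly also called mm10), running from 250 bases before to 50 bases after a start site, were at hand for 8 of the 10 genes, and all 8 held the TEAD core GGAATG on one strand or the other. Of all 27025 genes with a window, 16.6% held it, as did 15.8% of genes higher and 14.7% of genes lower in the knockout. These genes are known TEAD targets or regulators, so the motif is not independent of how such genes became known, and a match is not evidence of binding. The sites are shown because they are what the 8 genes with a window share beyond their expression. Ccn2 and Thbs1 had no window at hand and were not searched. Each line gives the gene, the position of the printed bases, the strand of the core relative to the gene, the distance of its first base on the gene's strand from the RefSeq start, and the site with 12 bases on each side, written so that the core, in capitals, reads in the same direction.
Yap1, chr9:8004720-8004749, gene strand, 141 bases before the start: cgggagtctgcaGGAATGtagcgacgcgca
Wwtr1, chr3:57576029-57576058, gene strand, 136 bases before the start: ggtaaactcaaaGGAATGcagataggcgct
Ccn1, chr3:145650071-145650100, opposite strand, 103 bases before the start: tcaaacatctcaGGAATGttggttggcgcg
Amotl2, chr9:102717727-102717756, opposite strand, 65 bases before the start: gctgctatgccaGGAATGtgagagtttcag
Ankrd1, chr19:36120037-36120066, gene strand, 210 bases before the start: gtcactgccaaaGGAATGaccctctcacat
Ankrd1, chr19:36119950-36119979, gene strand, 123 bases before the start: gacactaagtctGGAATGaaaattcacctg
Axl, chr7:25788949-25788978, gene strand, 233 bases before the start: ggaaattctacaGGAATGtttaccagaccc
Lats2, chr14:57746102-57746131, gene strand, base 5 after the start: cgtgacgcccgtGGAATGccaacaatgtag
Ajuba, chr14:54577830-54577859, opposite strand, 186 bases before the start: gaggggcactgtGGAATGtatccatcaacg
Ajuba, chr14:54577808-54577837, opposite strand, 164 bases before the start: ttgtttacagttGGAATGcgcggaggggca

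Ankrd1 and Ajuba each held the core at 2 places, and the other 6 genes at 1. Wwtr1 had 2 windows, which overlap and hold the same site, and Lats2 had 2 windows, of which 1 held the core. The Lats2 core began at base 5 of the transcript in that window, so with the 250 upstream bases alone 7 of 8 genes held it, against 14.4% of all genes. For Amotl2, Ankrd1 and Lats2, GENCODE M21 also annotates starts further upstream, by 1132, 255 and 12265 bases, so their sites may be transcribed in some isoforms. The AP-1 site TGANTCA, searched on both strands, was in none of the 8 genes' windows, and neither was the CArG box of serum response factor. Over all genes these were in 8.97% and 1.81%. The searches cover this window alone.

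**Figure D1:**
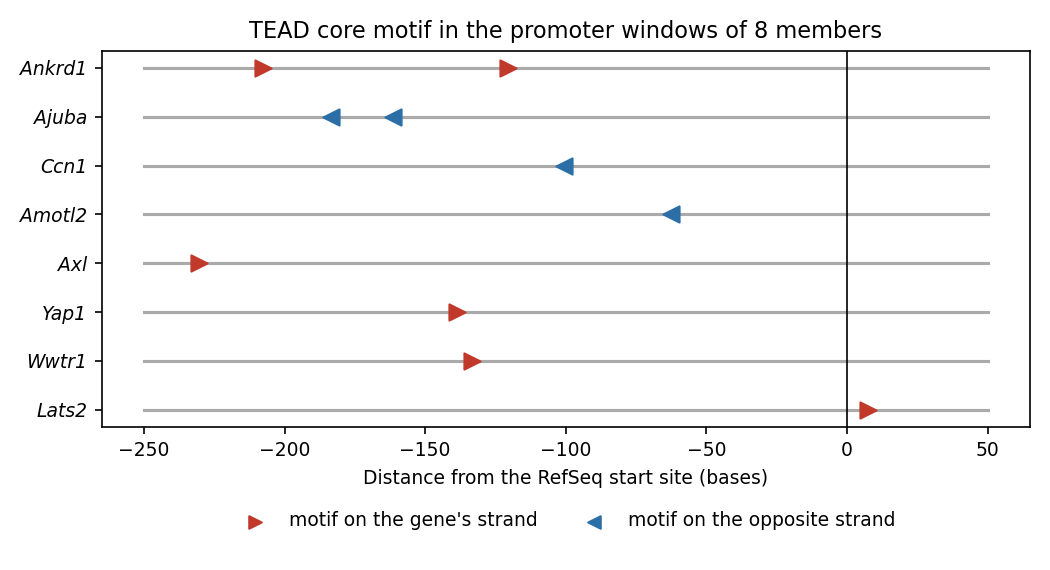
Position of the TEAD core in the promoter windows of 8 genes, as distance in bases from the RefSeq start site (black line), with grey lines for the windows and arrowheads for the strand of the core. In 7 genes the core lies 65 to 233 bases before the start, and in Lats2 it lies just after it.

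The promoters of Ccn1, Ajuba and Yap1 are shown whole, to the base before the RefSeq start, on the gene's strand and with the core in capitals. Ccn1 had the largest fold change among genes with a window, Ajuba has a pair of cores close together, and Yap1 encodes the coactivator itself. The Yap1 promoter is rich in G and C, at 76.4%, against 50.8% for Ajuba and 54.8% for Ccn1; the median of all upstream windows is 52.4%.
Ccn1, chr3:145649986-145650235, minus strand: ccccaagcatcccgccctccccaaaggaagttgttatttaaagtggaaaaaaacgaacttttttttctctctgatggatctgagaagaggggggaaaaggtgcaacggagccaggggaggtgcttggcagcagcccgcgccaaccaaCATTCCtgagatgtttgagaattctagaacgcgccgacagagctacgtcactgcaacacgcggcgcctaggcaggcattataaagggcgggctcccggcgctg
Ajuba, chr14:54577662-54577911, minus strand: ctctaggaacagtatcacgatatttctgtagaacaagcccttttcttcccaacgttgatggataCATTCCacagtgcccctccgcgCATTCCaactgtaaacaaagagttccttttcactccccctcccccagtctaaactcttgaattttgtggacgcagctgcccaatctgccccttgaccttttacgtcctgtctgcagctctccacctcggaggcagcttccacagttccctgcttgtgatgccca
Yap1, chr9:8004597-8004846, minus strand: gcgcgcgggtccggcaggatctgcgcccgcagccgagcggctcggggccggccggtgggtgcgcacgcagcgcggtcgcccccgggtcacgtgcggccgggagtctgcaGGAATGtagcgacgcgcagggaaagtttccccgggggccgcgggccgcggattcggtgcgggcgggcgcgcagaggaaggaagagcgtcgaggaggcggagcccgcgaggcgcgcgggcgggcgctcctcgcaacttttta

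Values below are on the TPM scale, a level per transcript length that the authors rescaled between libraries. Fold changes are log2 of scaled reads plus 1, knockout over WT, with their standard error (SE) from limma. Library depth, estimated from the spacing of low values, was 40440000 to 59640000 fragments in knockout and 38540000 to 52750000 in WT libraries. Mettl5 itself was at 3.65, 3.58 and 3.32 in knockout libraries, against 50.3, 48.6 and 48.7 in WT libraries. The contrast was broad: of 24183 genes tested, 62.6% passed limma at a Benjamini-Hochberg adjusted p of 0.05, 33.6% as higher and 28.9% as lower in the knockout. Higher genes were thus 53.8% of all calls, but 40.8% with libraries rescaled to equal totals, where the median log2 fold change over all genes is -0.15 in place of 0.00. Medians per chromosome were -0.41 on chromosome 11, -0.38 on 8 and -0.29 on 6, and -0.02 to 0.21 on the other autosomes and X. None of the 10 genes lies on those 3 chromosomes.

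The coactivator genes were both expressed in WT cells and both higher in the knockout, by less than most of their targets. Yap1 (ENSMUSG00000053110, mm10 chromosome 9, 7931999 to 8004596) was at 57.2, 57.1 and 58.1 in knockout libraries, against 40.2, 39.6 and 39.0 in WT libraries. The groups did not overlap, and the log2 fold change was 0.59 (SE 0.0271), the smallest of the 10 genes. Wwtr1 (ENSMUSG00000027803, chromosome 3, 57455649 to 57575910) was at 13.8, 14.7 and 14.2 in knockout libraries, against 6.23, 6.60 and 6.71 in WT libraries. All 3 knockout libraries were above all WT libraries, and the log2 fold change was 1.18 (SE 0.0385). Yap1 RNA remained the more abundant, and the ratio of Wwtr1 to Yap1 on the TPM scale was 0.248 ± 0.00839 in knockout and 0.165 ± 0.00869 in WT cells (SD, n = 3). These are RNA levels; where YAP and TAZ proteins were, and whether LATS had phosphorylated them, was not measured.

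The secreted matrix targets showed larger differences, led by Thbs1. Thbs1 (ENSMUSG00000040152, chromosome 2, 118111876 to 118127133) encodes thrombospondin 1, a matrix glycoprotein that can activate latent TGF-beta. It was at 63.4, 63.5 and 63.6 in knockout libraries, against 1.05, 0.996 and 1.02 in WT libraries. No value of one group came near the other, with a log2 fold change of 6.0 (SE 0.035), the largest of the 10. Ccn1 (ENSMUSG00000028195, chromosome 3, 145646976 to 145649981), also called Cyr61, encodes an integrin-binding matrix protein and a classical YAP target. It was at 85.9, 86.3 and 88.1 in knockout libraries, against 6.94, 7.28 and 6.88 in WT libraries, a log2 fold change of 3.68 (SE 0.0329). Ccn2 (ENSMUSG00000019997, chromosome 10, 24595442 to 24598683), also called Ctgf, encodes a close relative of CCN1. It was at 53.8, 56.0 and 56.0 in knockout libraries, against 12.3, 12.9 and 12.9 in WT libraries, a log2 fold change of 2.17 (SE 0.033).

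The order of the CCN pair differed between the genotypes: Ccn1 was above Ccn2 in all 3 knockout libraries and below it in all 3 WT libraries. Their ratio, Ccn1 to Ccn2 on the TPM scale, was 1.57 ± 0.0282 in knockout and 0.554 ± 0.0188 in WT cells (SD, n = 3). The ratio of Thbs1 to Ccn1 was 0.732 ± 0.00921 in knockout and 0.145 ± 0.00774 in WT cells (SD, n = 3). Among genes with values, those on the opposite strand overlap Yap1 (Gm20416), Ccn2 (Gm15270), Thbs1 (Gm29233) and Lats2 (Gm20430), per GENCODE M21. Their highest levels were 2.24 in knockout and 1.84 in WT libraries, both in Gm20430, and Gm29233 was listed at 0 in all WT libraries. The library kit keeps strand, per the labels, but no source used here states whether reads were assigned by it, so a part of these reads may belong to the member, or the reverse. GENCODE M21 also places Gm16016 opposite Wwtr1, Gm26440 opposite Lats2, and the protein-coding gene Gm49361 on the same strand as Lats2. Values of these 3 genes were not analysed here, and Lats2 is uncertain to the extent that it shares reads with Gm49361.

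**Figure D2:**
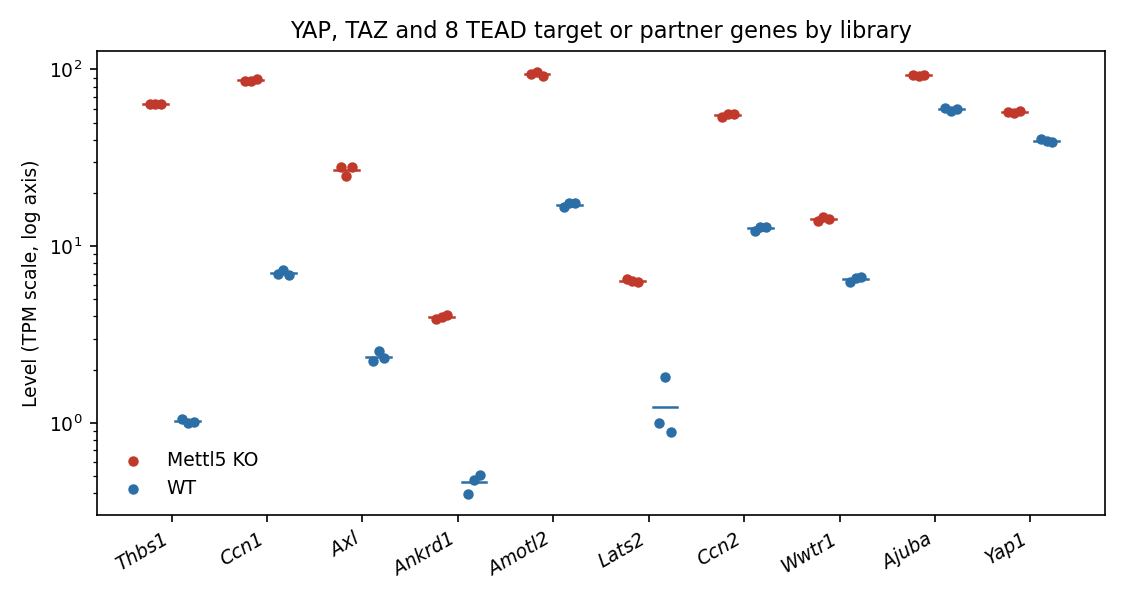
Level of each of the 10 genes in every library, on the TPM scale with a log axis; points are libraries, bars are means of 3, and genes are ordered by fold change. Every knockout library lies above every WT library for all 10 genes, with the widest gap in Thbs1 and the narrowest in Yap1.

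Among the genes that act within the Hippo pathway, Amotl2 and Lats2 differed more than Ajuba. Amotl2 (ENSMUSG00000032531, chromosome 9, 102716672 to 102733418) was at 93.7, 97.0 and 92.1 in knockout libraries, against 16.6, 17.4 and 17.6 in WT libraries. The groups were far apart, with a log2 fold change of 2.52 (SE 0.0402). Lats2 (ENSMUSG00000021959, chromosome 14, 57689662 to 57758388) was at 6.49, 6.38 and 6.30 in knockout libraries, against 0.993, 1.83 and 0.883 in WT libraries. WT replicate 2 was well above the other WT libraries, and the groups did not overlap. The log2 fold change of 2.49 (SE 0.232) became 2.80 without that library. Ajuba (ENSMUSG00000022178, chromosome 14, 54567472 to 54577558) encodes a LIM-domain protein that binds LATS kinases and restrains them. It was already the highest of the 10 genes in WT cells, at 93.2, 91.6 and 93.3 in knockout libraries, against 60.8, 58.0 and 59.9 in WT libraries (log2 fold change 0.69, SE 0.026).

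Axl and Ankrd1 were low in WT cells and higher in the knockout. Axl (ENSMUSG00000002602, chromosome 7, 25757273 to 25788705) encodes the receptor tyrosine kinase for GAS6. It was at 28.2, 25.1 and 28.1 in knockout libraries, against 2.23, 2.55 and 2.34 in WT libraries, a log2 fold change of 3.57 (SE 0.082). Ankrd1 (ENSMUSG00000024803, chromosome 19, 36111961 to 36120099) encodes an ankyrin repeat protein best known from muscle and is a standard reporter of YAP activity. It was the least abundant of the 10 genes in both groups, at 3.85, 3.97 and 4.06 in knockout libraries, against 0.397, 0.474 and 0.508 in WT libraries. Its log2 fold change of 3.14 (SE 0.113) rests on an average of 42.6 scaled reads per WT library.

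All 10 genes were past the call threshold as higher, beside 33.6% of all genes tested, and all 10 were higher with no overlap of the groups, beside 32.5% of all genes. At a log2 fold change of at least 1 stood 8 of the 10, beside 11.4% of all genes, 7 at 2 or more, beside 4.46%, and 4 at 3 or more, beside 1.70%. Because the genes were chosen from this contrast, nothing is read from these counts. Their median log2 fold change was 2.51, beside 0.00 for all genes tested. Summed over the 10 genes, the TPM scale gave 500 to 504 in knockout and 148 in WT libraries. Ajuba and Yap1 made up 18.5% and 11.5% of that sum in knockout cells and 40.3% and 26.8% in WT cells. Ccn1 and Thbs1 made up 17.3% and 12.7% in knockout cells and 4.76% and 0.692% in WT cells.

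The order of levels was therefore different in each genotype. In knockout cells it ran Amotl2, Ajuba, Ccn1, Thbs1, Yap1, Ccn2, Axl, Wwtr1, Lats2 and Ankrd1, and the ranges of neighbours overlapped for Amotl2 and Ajuba alone. In WT cells it ran Ajuba, Yap1, Amotl2, Ccn2, Ccn1, Wwtr1, Axl, Lats2, Thbs1 and Ankrd1, and the ranges of neighbours overlapped for Lats2 and Thbs1 alone. The coefficient of variation between replicates had a median of 1.91% in knockout and 3.1% in WT cells over these genes, against 7.46% and 7.95% over all genes tested, many of which are low. Its highest values were 6.55% for Axl in knockout and 41.9% for Lats2 in WT cells. In bulk RNA, more cells expressing a gene and more RNA per cell cannot be told apart.

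Of the 4 TEAD genes, which encode the DNA-binding partners of YAP and TAZ, 3 rose and Tead4 did not pass. With the 3 Vestigial-like genes tested, which encode other cofactors of TEAD, 6 of 7 rose, none fell and 1 did not pass, with a median log2 fold change of 1.48 (33.6% of all genes rose, with a median of 0.00). Tead2 was the most abundant TEAD gene in both groups, at 90.4 ± 2.41 in knockout and 64.4 ± 1.53 in WT cells (SD, n = 3), and rose by 0.57 on the log2 scale (limma adjusted p 1.12e-06). Tead1 followed, at 39.1 ± 0.159 in knockout and 23.5 ± 0.375 in WT cells (SD, n = 3), and rose by 0.79 (limma adjusted p 3.11e-08). Of the less abundant TEAD genes, Tead3 was above Tead4 in all knockout libraries and below it in all WT libraries. Tead3 was at 13.2, 14.2 and 13.2 in knockout libraries, against 1.95, 1.54 and 2.06 in WT libraries, and rose by 2.93 on the log2 scale (SE 0.0979, limma adjusted p 1.12e-08). Tead4, the factor known for trophectoderm formation, was at 7.95, 7.70 and 8.02 in knockout libraries, against 8.31, 7.41 and 7.86 in WT libraries. Its groups overlapped, and its log2 fold change of 0.06 did not pass (limma adjusted p 0.327); it was -0.09 with equal totals, and 0.28 and past the threshold with values centred per chromosome.

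Vestigial-like proteins bind the same face of TEAD factors as YAP does. Vgll3 was at 21.5, 22.1 and 22.1 in knockout libraries, against 0.971, 1.23 and 1.05 in WT libraries, and rose by 4.38 on the log2 scale (SE 0.0826, limma adjusted p 3.42e-10). Vgll4, which competes with YAP for TEAD factors and represses their targets, rose by 1.48 (SE 0.055, limma adjusted p 2.2e-08), at 17.4 ± 0.663 in knockout and 6.48 ± 0.275 in WT cells (SD, n = 3). Vgll1 also rose but stayed low, at 0.281 to 0.382 in knockout libraries, and in WT libraries it was at 0.0391 at most and listed at 0 in replicate 3. The TEAD core was in the promoter window of 4 of the 6 genes of this list that had one, beside 15.2% of all tested genes.

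Among 21 Hippo kinases, adaptors and regulators other than the 10 genes, 15 rose, 3 fell and 3 did not pass. Their median log2 fold change was 0.36, beside 0.00 for all genes tested, of which 33.6% were higher and 28.9% lower. Among genes of the core kinases and their adaptors, the MST kinase genes Stk3 and Stk4 rose by 0.38 and 0.22, Sav1 by 0.25, Lats1 by 0.38 and Mob1b by 0.36 on the log2 scale, while Mob1a fell by 0.16 (limma adjusted p 0.0013 or smaller for each). Amotl1 and Amot, the other angiomotins, rose by 2.25 and 1.39 (limma adjusted p 1.58e-09 and 2.81e-09). Ptpn14, a phosphatase that binds YAP and holds it in the cytoplasm, rose by 2.0, and Frmd6, a FERM-domain activator of the pathway, by 1.21 (limma adjusted p 6.42e-10 and 1.46e-08).

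Amotl1 was at 22.5, 22.5 and 23.0 in knockout libraries, against 5.19, 5.14 and 4.52 in WT libraries, so the groups were well apart. The 3 genes that fell did so slightly: the MST-activating kinase gene Taok1 by 0.25, the LATS coactivator gene Mob1a by 0.16 and Nf2, which encodes the tumour suppressor merlin, by 0.13 on the log2 scale. Their limma adjusted p-values were 1.88e-05, 0.0013 and 0.00401. Taok1 and Nf2 are on chromosome 11 and Mob1a on chromosome 6, where the median of all genes was itself below 0. With log2 values centred per chromosome, 14 genes of the list rose and 0 fell, and Nf2 was among those that rose (0.18). The list's median was then 0.24, and that of all genes -0.08. The largest rises of the list, named after their values were seen, were those of the atypical cadherin genes Fat4 (3.12) and Dchs1 (2.23) and of Amotl1. Fat4 and Dchs1 were barely expressed, at 0.0748 ± 0.00153 and 0.340 ± 0.043 in knockout and 0.00722 ± 0.00054 and 0.0713 ± 0.00803 in WT cells (SD, n = 3). Rescaling to equal totals left 12 that rose and gave 4 that fell, with a list median of 0.20. That rescaling moved the median over all genes from 0.00 to -0.15, a shift near the size of the smaller rises, such as that of Stk4.

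A published signature of YAP and TAZ targets, defined in human tumours, holds further targets. Leaving out the members it shares with the genes above, 16 of its 16 remaining genes rose in the knockout and none fell, with a median log2 fold change of 1.99, beside 33.6% and 0.00 for all genes tested. Ptpn14 is also among the Hippo regulators above, so its rise was counted there too. The signature's count was 16 of 16 under each of the 15 alternative settings, which reuse the same libraries. Like the other lists, the signature was chosen with earlier results of these data known, so its count is not independent support. Igfbp3, which encodes a secreted binding protein for insulin-like growth factors, was at 93.4, 91.9 and 94.1 in knockout libraries, against 13.2, 13.2 and 12.8 in WT libraries (log2 fold change 2.89, limma adjusted p 8.91e-12). F3, which encodes tissue factor, the starter of blood clotting, was at 59.6, 62.5 and 60.4 in knockout libraries, against 7.34, 7.69 and 7.38 in WT libraries (3.09, limma adjusted p 3.73e-11). Neither gene's groups overlapped. Nt5e, which encodes the adenosine-producing enzyme CD73, rose by 3.90 to 9.01 ± 0.36 in knockout cells, against 0.621 ± 0.023 in WT cells (SD, n = 3; limma adjusted p 8.89e-11).

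The extremes of the signature, named after their values were seen, were the growth factor gene Tgfb2 and the stress gene Gadd45a. Tgfb2 rose by 5.50 on the log2 scale (SE 0.128, limma adjusted p 1.13e-09), and was at 14.3, 15.2 and 14.1 in knockout libraries, against 0.308, 0.275 and 0.353 in WT libraries. Gadd45a rose by 0.54 (limma adjusted p 2.51e-07) from the highest WT level of the list, with 76.6 ± 0.395 in knockout and 55.6 ± 0.548 in WT cells (SD, n = 3). Mean levels passed 1 for 14 of the 16 genes in knockout cells and for 11 in WT cells. The TEAD core was in the promoter window of 2 of the 10 that had one, beside 5 of 17 Hippo regulators and 4 of 13 serum response targets. Of all tested genes with a window, members left out, 15.2% held it.

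**Figure D3:**
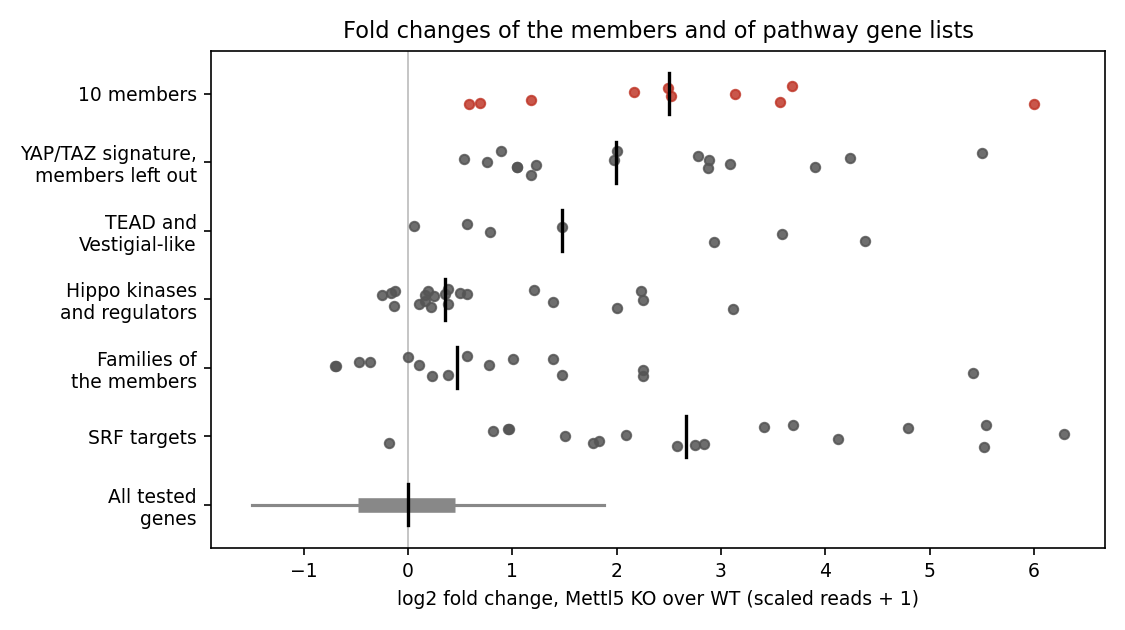
Log2 fold change, knockout over WT, of each gene in the 10 members and 5 gene lists; points are genes, black bars are medians, and the grey bar gives the 25th to 75th percentile and the thin line the 5th to 95th percentile (-1.50 to 1.88) of all tested genes. All points of the signature lie right of zero, while the Hippo regulators cluster near zero with a tail to the right.

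The families of the members were set beside them, since near relatives differ in whether they are known YAP targets. Of 16 relatives tested, 9 rose, 2 fell and 5 did not pass, with a median log2 fold change of 0.48, beside 33.6% higher and 28.9% lower over all genes tested. Lats1, Amot, Amotl1, Limd1 and Wtip are also among the Hippo regulators above, so 4 of the 9 rises were counted there too. The number that fell was 4 with equal totals and on the TPM column, 5 with values centred per chromosome, and 1 without knockout replicate 3 or WT replicate 3. Ccn4, a WNT-responsive member of the CCN family, rose by 5.42 (SE 0.159, limma adjusted p 4.86e-09), at 8.29, 8.31 and 8.46 in knockout libraries, against 0.225, 0.174 and 0.153 in WT libraries. Ccn3 rose by 1.01 but remained low, at 0.351 ± 0.0405 in knockout and 0.176 ± 0.0174 in WT cells (SD, n = 3). Ccn6 did not pass (-0.69, limma adjusted p 0.0863) but fell with equal totals (-0.83), with values centred per chromosome (-0.82) and on the TPM column (-0.44). Ccn6 was barely expressed, with mean levels of 0.092 in knockout and 0.161 in WT libraries (6.96 and 11.7 scaled reads).

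The thrombospondin relatives were either low or moderate. Thbs2, like THBS1 an inhibitor of vessel growth, rose by 2.25 (limma adjusted p 4.03e-07), at 0.773 ± 0.0699 in knockout and 0.164 ± 0.0134 in WT cells (SD, n = 3). Thbs3 was at 19.6, 19.2 and 20.3 in knockout libraries, against 12.3, 11.7 and 12.0 in WT libraries, and rose by 0.78 (limma adjusted p 8.14e-07). In knockout libraries Thbs1 was the most abundant thrombospondin RNA, and in WT libraries Thbs3 was. Thbs4 rose by 1.48 (limma adjusted p 2.74e-05), at 0.793 ± 0.0798 in knockout and 0.289 ± 0.019 in WT cells (SD, n = 3). Comp did not pass (0.23, limma adjusted p 0.466), with mean levels of 0.75 in knockout and 0.68 in WT libraries.

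The receptors related to Axl fell, while Axl was higher. Tyro3 was at 11.1, 10.5 and 11.1 in knockout libraries, against 16.8, 14.7 and 16.5 in WT libraries, and fell by 0.47 on the log2 scale (SE 0.069, limma adjusted p 0.000248). Mertk fell by 0.36 (SE 0.11, limma adjusted p 0.0172), a call that was lost without knockout replicate 3 (adjusted p 0.0625) or without WT replicate 3 (adjusted p 0.0558). Axl was the most abundant of the 3 receptor RNAs in knockout cells, and Tyro3 in WT cells.

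Lats1 and Lats2 likewise changed order. The ratio of Lats2 to Lats1 on the TPM scale was 2.43, 2.28 and 2.37 in knockout libraries, against 0.464, 0.848 and 0.405 in WT libraries. Beside Ajuba, Limd1 rose by 0.57 (limma adjusted p 0.000216) and Wtip did not pass, at 0.11 (limma adjusted p 0.0841), -0.04 with equal totals and -0.06 with values centred per chromosome. Beside Ankrd1, the muscle relatives did not pass: Ankrd2 was at -0.70 (limma adjusted p 0.0662) and Ankrd23 at 0.00 (limma adjusted p 0.994). Ankrd2 fell with equal totals (-0.84), with values centred per chromosome and on the TPM column, and Ankrd23 with values centred per chromosome (-0.25). Ankrd2 was barely expressed, with mean levels of 0.109 in knockout and 0.199 in WT libraries (6.2 and 10.8 scaled reads). Among the 12 relatives with a promoter window, 3 held the TEAD core, beside 15.2% of all tested genes.

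Genes controlled by serum response factor were measured because Ccn1 and Ccn2 are known to respond to that factor and its actin-sensing partners as well as to YAP. Of 18 such genes, 17 rose and 1 fell, beside 33.6% higher and 28.9% lower over all genes tested. Their median log2 fold change was 2.67, beside 0.00 for all genes tested. Tpm1, a tropomyosin gene, rose by 3.41 to 1089 ± 14.5 in knockout cells, against 107 ± 3.43 in WT cells (SD, n = 3; limma adjusted p 4.16e-12). Cnn2, a calponin gene, rose by 2.58 to 219 ± 4.62 in knockout cells, against 38.0 ± 0.429 in WT cells (SD, n = 3; limma adjusted p 8.91e-12). Tagln and Acta2 rose by 5.52 and 6.29. The gene that fell was the immediate early factor gene Egr1 (-0.18, limma adjusted p 0.0104). The Srf gene itself rose by 0.82, with 28.5 ± 1.02 in knockout and 17.1 ± 1.56 in WT cells (SD, n = 3). The YAP targets and the serum response genes were higher in the same libraries, and the part of either factor was not tested.

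Markers of other cell types moved in the same libraries, where 33.6% of all genes tested were higher and 28.9% lower in the knockout. Of 15 fibroblast markers, 12 rose and 3 fell, with a median log2 fold change of 2.88 and a summed level of 338 to 352 in knockout and 71.1 to 80.7 in WT libraries, most of it Vim. The 3 that fell were Mfap5, Thy1 and Pdgfra, by 1.29, 1.07 and 1.02 on the log2 scale. Mean levels passed 1 for 9 of the 15 in knockout and 5 in WT cells. Col1a1, which encodes a fibrillar collagen that fibroblasts make in large amounts, was at 17.7 ± 0.444 in knockout and 0.694 ± 0.316 in WT cells (SD, n = 3). Lum was the one marker listed at 0 in any library, in WT replicate 3, and reached 0.13 at most in knockout libraries. Of 7 trophectoderm markers 6 rose, with a summed level of 53.8 to 55.2 in knockout and 15.5 to 17.4 in WT libraries, and Elf5 did not pass; Cdx2 was at 5.38 ± 0.144 in knockout and 0.258 ± 0.0118 in WT cells (SD, n = 3). Of 7 primitive endoderm markers none rose and 6 fell, with a summed level of 12.0 to 12.9 in knockout and 34.7 to 36.1 in WT libraries. The part of other cell types in the levels of the 10 genes was not tested.

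Stem cell markers remained high in both groups. Of 8, 1 rose (Dppa5a, by 0.31), 6 fell and 1 did not pass, beside 33.6% higher and 28.9% lower over all genes tested. The median log2 fold change of these markers was -0.49. The largest falls were those of Zfp42, which encodes REX1, at 238 ± 2.59 in knockout and 584 ± 4.32 in WT cells, and of Esrrb, at 51.8 ± 1.35 in knockout and 98.5 ± 2.79 in WT cells (SD, n = 3). Their log2 fold changes were -1.24 and -0.88 (limma adjusted p 2.48e-10 and 1.67e-08). Pou5f1, which encodes OCT4, was at 1368, 1285 and 1336 in knockout libraries, against 1560, 1460 and 1475 in WT libraries (log2 fold change -0.09, limma adjusted p 0.0343), a call that was lost without knockout replicate 2 or 3 or WT replicate 1 or 3 (adjusted p 0.0706 to 0.125). Nanog did not pass (0.04, limma adjusted p 0.158), but its call depended on the scaling. It fell with equal totals (-0.12, limma adjusted p 0.00215) and rose with values centred per chromosome (0.26, limma adjusted p 0.000759). Sox2 fell by 0.58.

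Genes whose profile over the 6 libraries was most like that of a member were sought among 9709 genes with a mean TPM-scale level of at least 5 in either genotype, leaving out predicted genes and pseudogenes. Likeness was the root mean square difference of log2 values (scaled reads plus 1) after subtracting each gene's WT mean. Closest to Yap1 were Supt4a, Fastkd5 and Plod2, at 0.0131, 0.015 and 0.0169. Closest to Ccn1 were Serpinb9b, S100a4 and Lsp1, at 0.0559, 0.0605 and 0.0732. Closest to Ccn2 were Nefl, Cxcl16 and Plin2, at 0.0251, 0.0366 and 0.0473. Closest to Thbs1 were Acta1, Prss23 and Sprr2a3, at 0.108, 0.167 and 0.177. S100a4 is also one of the fibroblast markers above. With 2 genotypes this measure compares mainly the size of the difference between them.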

How the data were processed

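PolyA RNA of 3 Mettl5 knockout and 3 WT libraries was analysed, grouped by sample title. The submitters' processing notes name kallisto, sleuth and mm10. Their versions, the annotation and the use of strand were not given in the sources at hand. The authors deposited 2 signal columns per gene, scaled reads and TPM, as named per the file headers. Neither is a count: scaled reads are not whole. In each library, though, 29.7% to 32.8% of low values (0.5 to 40) were multiples of one step to a tolerance of 0.02, and that step gave the estimate of depth. The TPM column sums to 1019930 to 1022470 in knockout and 969840 to 978170 in WT libraries.

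The members and gene lists were chosen with earlier results of these data known. Genes averaging at least 1 scaled read (24183) were fitted as log2(scaled reads + 1) in limma 3.58.1 under R 4.3.3, with a mean-variance trend, after the script had been tested on simulated data, and with Benjamini-Hochberg adjustment over all of them and a threshold of 0.05. Symbols and coordinates came from GENCODE M21, which held 23846 of 24191 identifiers, and promoters from RefSeq (GRCm38.p6). Besides the members, Mettl5, TEAD genes and stem cell factors, the text names up to 4 genes per list and direction with the smallest p, relatives of members, core Hippo kinases, single markers such as Col1a1 and Srf chosen after their values were seen, and 3 like-profile genes for each of 4 members. Vgll2 and Ccn5 were not analysed here. Alternatives were other scalings, pseudocounts, filters, the TPM column, a replicate block and leaving out each library. Pandas 2.3.3, numpy 2.4.6 and matplotlib 3.10.9 in Python 3.11.15 were used.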

Additional observations from a re-analysis of the deposited data

How the results depend on the processing

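All 10 genes were higher in the knockout under each of the 15 alternatives, with log2 fold changes from 0.44 (Yap1 with equal totals, Ajuba with values centred per chromosome) to 6.02 (Thbs1 without WT replicate 1). Their median, 2.51, was 2.35 with equal totals, 2.38 with values centred per chromosome, 2.40 on the TPM column, 2.40 with a pseudocount of 10, and 2.42 to 2.67 when one library was left out. The Hippo regulators that fell numbered 0 with chromosome centring, against 3. They numbered 4 with equal totals, with median-of-ratios scaling, on the TPM column and without knockout replicate 2. Wwc1 did not pass in the fit described above (-0.12, limma adjusted p 0.0636). It fell in each of those settings (-0.28, -0.15, -0.20 and -0.16, in that order). The relatives of the members that fell numbered 4 with equal totals, 5 with chromosome centring, 4 on the TPM column and 1 to 2 when one library was left out, against 2. The stem cell markers that rose numbered 2 with chromosome centring, where Nanog also rose (0.26), against 1. Directions turned for genes with small fold changes. Ankrd23 was -0.16 with equal totals, -0.02 with median-of-ratios scaling, -0.25 with chromosome centring, -0.05 on the TPM column, and -0.06 to 0.05 when one library was left out (below 0, at -0.06 and -0.04, without knockout replicate 1 or WT replicate 1). With chromosome centring Mob1a was 0.06, Nf2 0.18, Taok1 0.06, Taok3 -0.01, Wtip -0.06 and Wwc1 0.18. With equal totals Nanog was -0.12, Tead4 -0.09 and Wtip -0.04, and on the TPM column Nanog was -0.01. The causes were not tested. Same-numbered libraries did not deviate together (r = 0.007, 0.011 and 0.032), and not every library correlated best with its own number. With a replicate block 8183 genes were higher and 6927 lower, against 8137 and 6998, and the counts of each list were as without it. Depth limits Ankrd1 and Lats2 most, at 42.6 and 50.5 scaled reads in WT libraries.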
